A study of Mus musculus with 4 samples.

Results

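The genes described here were the variable (V) segments of the T cell receptor in mouse spleen RNA, chosen as every gene of the deposited table whose mouse symbol begins with Trav, Trbv, Trgv or Trdv. There were 82 such segments among 23763 genes, namely 57 Trav (alpha chain), 21 Trbv (beta chain), 1 Trgv (gamma chain) and 3 Trdv (delta chain). Spleens of C57BL/6J mice at baseline were compared in 2 groups of 2 libraries, KLHL3 knock-in (KLHL3-KI) and wild-type (WT), after depletion of ribosomal RNA and directional library preparation. The labels give no age, sex or knock-in allele, and they do not say that the 2 libraries of a group came from separate animals, so a p-value here measures only the spread between these libraries, which may be technical. KLHL3 is the substrate adaptor of a ubiquitin ligase that acts on WNK kinases.

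T cell receptor genes are assembled during T cell development by joining 1 of many V segments to a joining segment, with a diversity segment between them in the beta and delta chains, and the assembled exon is spliced to a constant gene. Each mature T cell therefore carries mostly 1 productive beta chain V segment, and the RNA of a V segment in a tissue sums over all T cells that use it. Most T cells of the spleen carry alpha and beta chains, and a minority carries gamma and delta chains. In bulk RNA, fewer T cells and less receptor RNA per cell cannot be told apart.

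The coding sequences of the members the results turn on were taken by gene identifier from the GENCODE M21 transcripts, an annotation of GRCm38. The coding sequence was annotated for 81 of the 82 segments and was 310 to 377 bases long (median 343). In 74 of the 81 the last in-frame TGT, a cysteine codon, lay within 20 bases of the end, with 9 to 18 bases after it; this end is the part of a V segment that enters the joint. The first sequences are the most abundant beta and alpha segments by summed value, the only gamma segment and the most abundant delta segment, each given by its last 300 bases with that TGT in capitals. Trbv lies on chromosome 6, Trgv on chromosome 13, and Trav and Trdv on chromosome 14.
Trbv3: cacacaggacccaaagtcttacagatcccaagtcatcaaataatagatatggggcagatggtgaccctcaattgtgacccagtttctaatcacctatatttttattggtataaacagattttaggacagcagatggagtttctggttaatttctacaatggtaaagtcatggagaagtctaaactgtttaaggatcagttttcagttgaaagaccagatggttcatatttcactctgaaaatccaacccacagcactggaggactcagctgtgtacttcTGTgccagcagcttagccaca
Trav14d-3-dv8: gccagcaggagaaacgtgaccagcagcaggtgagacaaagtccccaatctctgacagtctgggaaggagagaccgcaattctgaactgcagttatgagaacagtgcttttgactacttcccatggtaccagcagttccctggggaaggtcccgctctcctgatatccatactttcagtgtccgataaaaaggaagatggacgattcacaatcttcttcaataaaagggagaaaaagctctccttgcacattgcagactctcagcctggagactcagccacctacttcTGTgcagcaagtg
Trgv2: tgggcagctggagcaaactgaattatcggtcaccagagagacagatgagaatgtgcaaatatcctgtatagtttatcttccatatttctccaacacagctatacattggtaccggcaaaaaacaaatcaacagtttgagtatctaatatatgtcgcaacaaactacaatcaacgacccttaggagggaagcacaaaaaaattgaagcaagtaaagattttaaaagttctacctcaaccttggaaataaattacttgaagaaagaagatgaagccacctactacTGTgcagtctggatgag
Trdv4: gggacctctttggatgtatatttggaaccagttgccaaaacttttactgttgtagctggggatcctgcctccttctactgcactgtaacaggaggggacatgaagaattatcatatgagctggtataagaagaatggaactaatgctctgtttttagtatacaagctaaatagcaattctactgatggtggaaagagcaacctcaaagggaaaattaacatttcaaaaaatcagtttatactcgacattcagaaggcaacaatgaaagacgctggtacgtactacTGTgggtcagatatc

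Each V locus was first described by its sum. Values are scaled read counts, which are CPM over an effective library size, so that 1 read was worth 0.0974 to 0.112. The 57 Trav segments summed to 11.2 and 9.54 in KLHL3-KI replicates 1 and 2, against 24.6 and 16.5 in WT replicates 1 and 2. These sums rested on 102 and 98 reads in KLHL3-KI and on 220 and 159 reads in WT. Both KLHL3-KI sums were below both WT sums, and the exact 95% Poisson intervals of the reads, which cover counting error only, ended at 13.6 in KLHL3-KI replicate 1 and began at 14.04 in WT replicate 2. The mean was 10.4 ± 1.19 in KLHL3-KI and 20.6 ± 5.73 in WT (SD, n = 2 libraries each), a log2 ratio of -0.98.
The 21 Trbv segments summed to 16.6 and 11.3 in KLHL3-KI, from 151 and 116 reads, against 27.5 and 18.8 in WT, from 246 and 181 reads. The groups did not overlap, but KLHL3-KI replicate 1 and WT replicate 2 lay within each other's counting intervals (14.1 to 19.5 and 16.2 to 21.7). The mean was 13.96 ± 3.77 in KLHL3-KI and 23.2 ± 6.18 in WT (SD, n = 2 each), a log2 ratio of -0.73. It was -0.43 without WT replicate 1, the library with the highest sums of both loci, and -0.48 without KLHL3-KI replicate 2. An exact permutation test of 2 against 2 libraries cannot go below p = 0.333, and no p is given for a sum over members.
The gamma and delta loci rested on few reads. Trgv2, the only gamma segment under these symbols, had 5 and 8 reads in KLHL3-KI against 4 and 5 in WT, or 0.551 and 0.779 against 0.448 and 0.519. Both KLHL3-KI values were above both WT values, but the counting intervals of all 4 libraries overlapped, and a difference was not detectable at this depth. The 3 Trdv segments together had 2 and 4 reads in KLHL3-KI against 10 and 10 in WT, or sums of 0.220 and 0.390 against 1.12 and 1.04. The Trdv groups did not overlap, but each Trdv sum of KLHL3-KI had a counting interval that reached into those of WT (up to 0.796 and 0.997, against lower limits of 0.537 and 0.498). The other gamma V genes of the table carry the older symbols Tcrg-V1 and Tcrg-V4 and stood outside the rule; they had 2 and 2 reads together in KLHL3-KI against 4 and 4 in WT.

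**Figure D1:**
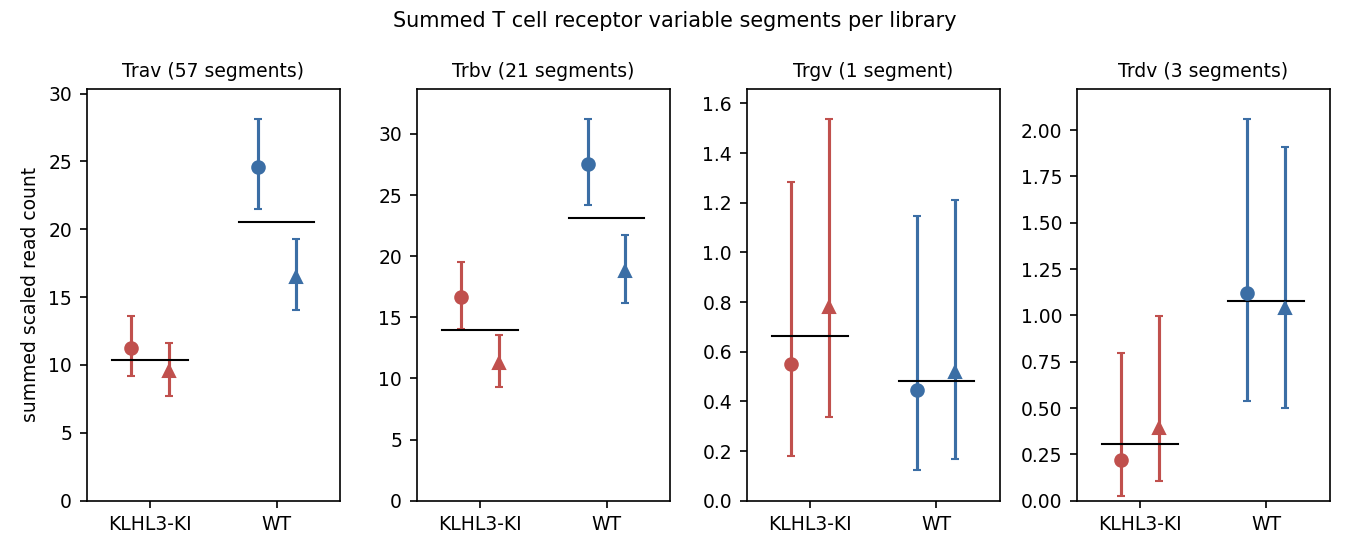
Summed scaled read count of each V locus (vertical axes, starting at 0) in KLHL3-KI and WT libraries, with circles for replicate 1, triangles for replicate 2, bars for exact 95% Poisson intervals of the reads and black lines for group means. The Trav sums of 11.2 and 9.54 in KLHL3-KI lie below those of 24.6 and 16.5 in WT, while the bars of the 4 Trgv values overlap.

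The sums were set beside the alpha and beta constant genes and the CD3 chains. Trac, the alpha constant gene, was at 32.7 and 31.5 in KLHL3-KI against 59.0 and 44.1 in WT, and fell by 0.65 on the log2 scale (SE 0.14, limma adjusted p = 0.00946). Trbc1, a beta constant gene, was at 22.4 and 23.5 against 43.5 and 30.7, and fell by 0.65 (SE 0.16, limma adjusted p = 0.0170). Trbc2, the other beta constant gene, was at 41.7 and 36.6 against 77.1 and 61.1, and fell by 0.80 (SE 0.13, limma adjusted p = 0.00232). Trbc1 and Trbc2 resemble each other closely, so the division of reads between them is uncertain. Without WT replicate 1 the calls of Trac and Trbc1 were lost (limma adjusted p = 0.0878 and 0.135), as they were without a variance trend (0.0601 and 0.0751); that of Trbc2 held in each alternative (at most 0.0378).
The CD3 chains, which carry the receptor's signal into the cell, gave the same direction. Cd3e fell by 0.87 on the log2 scale (SE 0.11), Cd3d by 0.77 (SE 0.14), Cd247 by 0.72 (SE 0.15) and Cd3g by 0.60 (SE 0.15). In that order limma gave adjusted p = 4.54e-04, 0.00340, 0.00822 and 0.0171. Without WT replicate 1, Cd3d (0.0501), Cd247 (0.0842) and Cd3g (0.146) lost the limma call at these adjusted p values, and Cd3g lost it without a variance trend (0.0745).

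Divided by the CD3 genes, the alpha and beta sums lay closer together between the groups (log2 ratios of -0.19 for Trav and 0.06 for Trbv), whereas Trdv was at -1.03 and Trgv at 1.23, further from 0 than its undivided 0.46. The Trbv sum came to 21.2% and 15.6% of the summed Cd3e, Cd3d and Cd3g in KLHL3-KI, against 19.4% and 16.0% in WT, and the values of the groups interleaved. The Trav sum came to 14.4% and 13.2% in KLHL3-KI against 17.4% and 14.02% in WT, where the ranges also overlapped. Per constant gene, Trbv was at 26.0% and 18.8% of Trbc1 and Trbc2 in KLHL3-KI against 22.8% and 20.5% in WT, which overlapped again. Trav per Trac did not overlap, at 34.3% and 30.3% in KLHL3-KI against 41.8% and 37.4% in WT, with both KLHL3-KI libraries below both WT libraries. The 3 delta segments per Trdc did not overlap either, at 6.25% and 15.4% in KLHL3-KI against 21.7% and 19.6% in WT, on 2 to 10 segment reads a library. Trac itself came to 51.0% and 52.5% of Trbc1 and Trbc2 in KLHL3-KI against 48.9% and 48.0% in WT, which did not overlap and went the other way. None of these ratios was tested, and no counting interval was computed for them.
Per kilobase of exon, the Trbv segments summed to 41.4 and 28.1 scaled reads in KLHL3-KI, against 69.4 and 46.5 in WT. Trbc1 and Trbc2 summed to 90.2 and 84.2 per kilobase in KLHL3-KI against 169 and 129 in WT. In all 4 libraries the level per kilobase was lower over the V segments than over the constant genes. The Trav segments summed to 27.2 and 23.9 per kilobase in KLHL3-KI against 61.0 and 39.8 in WT, beside 35.0 and 33.7 against 63.1 and 47.2 for Trac. V segments with fewer than 4 reads over the 4 libraries are not analysed here, since the lowest total of any gene of the table was 4 reads.

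**Figure D2:**
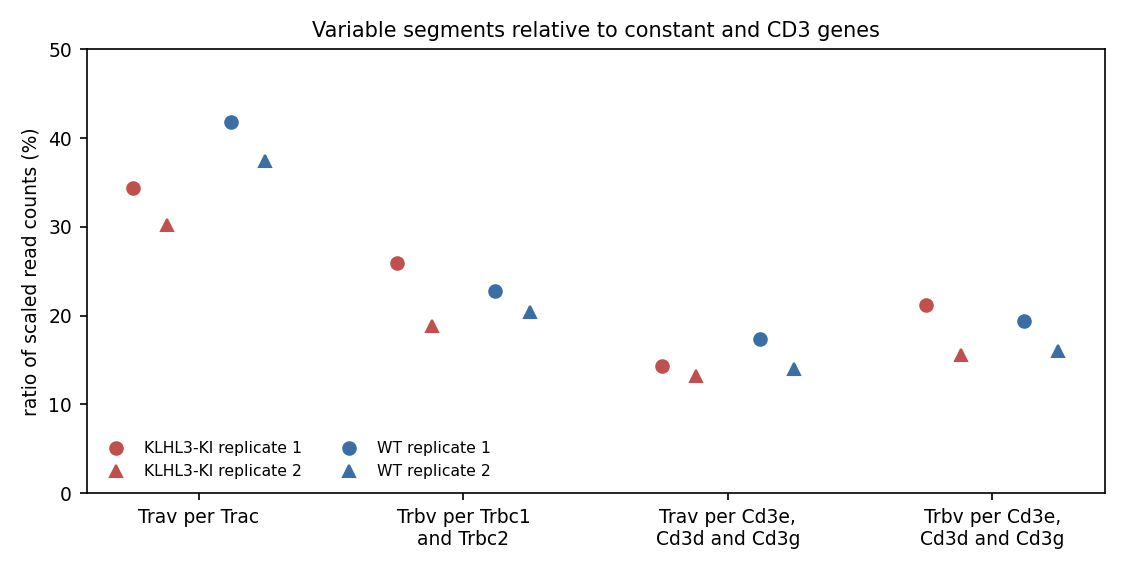
Summed Trav and Trbv values as a percentage of the constant genes and of the summed Cd3e, Cd3d and Cd3g (vertical axis) in each library, with KLHL3-KI left of WT. The groups interleave for 3 of the 4 ratios, while Trav per Trac lies at 34.3% and 30.3% in KLHL3-KI and at 41.8% and 37.4% in WT.

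Single segments were low. A Trav segment had 4 to 26 reads over the 4 libraries together (median 9), and a Trbv segment 4 to 75 (median 34). The tests covered genes with a mean of at least 1 over the 4 libraries, and 9 of the 82 segments passed that minimum, all of them Trbv; the other 73 were 57 Trav, 12 Trbv, 1 Trgv and 3 Trdv. None of the 9 tested segments fell or rose at a limma adjusted p of 0.05, while 7.56% of the 16970 genes tested fell and 15.2% rose. At an unadjusted limma p under 0.05 the count was 1 of 9, which was Trbv13-1. With edgeR 0 were called (1 at an unadjusted p under 0.05) and with DESeq2 0 (0 unadjusted), but DESeq2 gave an adjusted p for only 1 of the 9, Trbv3 (0.634). The median log2 fold change of the 9 segments was -0.39, beside -0.01 over all genes tested.
Counted by overlap alone, both KLHL3-KI values were below both WT values for 6 of the 9 tested segments (66.7%), against 31.9% of the tested genes. Over all members this held for 43 of 82 (52.4%), against 29.7% of all genes of the table, with 29 of 57 Trav, 12 of 21 Trbv and 2 of 3 Trdv. The reverse held for 4 of the 82, and no share over all genes was computed for it. Some of the 43 had equal reads in a KLHL3-KI and a WT library, and only the worth of 1 read parted their values. Examples, named after their values were seen, were Trav2 (1 and 0 reads in KLHL3-KI against 1 and 2 in WT) and Trbv29 (7 and 9 against 10 and 9). Such ties were not removed from the counts or from the share over all genes. Several Trav segments share reads, as described below, so these counts do not add up independent genes. Group means were lower in KLHL3-KI for 45 of the 57 Trav segments and for 20 of the 21 Trbv segments.

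Among beta segments, Trbv3 had the highest mean. It was at 1.76 and 1.36 in KLHL3-KI (16 and 14 reads) against 3.13 and 1.76 in WT (28 and 17 reads). KLHL3-KI replicate 1 and WT replicate 2 differed by under 1 read's worth, and the log2 fold change was -0.40 (SE 0.27, limma adjusted p = 0.312). Trbv16 was at 1.65 and 0.779 in KLHL3-KI against 2.24 and 1.45 in WT, so its groups overlapped (log2 fold change -0.38, SE 0.28, limma adjusted p = 0.38). Trbv2 was at 1.21 and 0.779 in KLHL3-KI against 1.79 and 1.56 in WT, with no overlap; its log2 fold change was -0.43 ± 0.25 (SE, adjusted p = 0.254 in limma). Of the other tested segments outside the Trbv13 family, Trbv1 was at 0.771 and 1.07 in KLHL3-KI against 1.68 and 1.35 in WT, Trbv19 at 1.10 and 0.877 against 1.45 and 1.45, and Trbv31 at 0.881 and 0.584 against 1.57 and 1.25. These 3 did not overlap between the groups. Trbv5, at 1.32 and 0.682 in KLHL3-KI against 1.79 and 1.04 in WT, overlapped. The log2 fold changes of these 4 lay between -0.48 (Trbv31) and -0.27 (Trbv5), and their limma adjusted p between 0.219 (Trbv31) and 0.536 (Trbv5). All of these are differences on the log2(value + 1) scale, which understates changes of such low genes.
The Trbv13 family held close relatives with unlike values. Trbv13-1, the tested segment with the lowest p, was at 0.881 and 0.584 in KLHL3-KI against 2.35 and 1.35 in WT. Both KLHL3-KI values were below both WT values, and the log2 fold change was -0.70 (SE 0.28, limma adjusted p = 0.1001, range over the alternatives 0.0571 to 0.274). Trbv13-2, named after its values were seen, was at 0.881 and 1.17 in KLHL3-KI against 1.45 and 0.623 in WT. Its WT values enclosed its KLHL3-KI values, and the log2 fold change was 0.02 (SE 0.29, limma adjusted p = 0.976). The difference between the log2 fold changes of Trbv13-1 and Trbv13-2 was not tested. Trbv13-3, under the minimum and also named after its values were seen, was at 0.551 and 0.390 against 1.79 and 0.934. The coding sequences of Trbv13-1 and Trbv13-2 are shown to compare them; they were 87.9% identical, with 41 differing positions including gaps. Of each the last 300 bases are printed, with its 34 differing bases there in capitals.
Trbv13-1: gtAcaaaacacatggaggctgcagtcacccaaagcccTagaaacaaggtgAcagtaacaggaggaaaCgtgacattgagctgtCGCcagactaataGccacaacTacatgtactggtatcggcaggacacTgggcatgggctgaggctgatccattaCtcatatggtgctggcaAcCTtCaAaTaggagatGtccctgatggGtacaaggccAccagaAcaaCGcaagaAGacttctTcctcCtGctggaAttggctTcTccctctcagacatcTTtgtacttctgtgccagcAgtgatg
Trbv13-2: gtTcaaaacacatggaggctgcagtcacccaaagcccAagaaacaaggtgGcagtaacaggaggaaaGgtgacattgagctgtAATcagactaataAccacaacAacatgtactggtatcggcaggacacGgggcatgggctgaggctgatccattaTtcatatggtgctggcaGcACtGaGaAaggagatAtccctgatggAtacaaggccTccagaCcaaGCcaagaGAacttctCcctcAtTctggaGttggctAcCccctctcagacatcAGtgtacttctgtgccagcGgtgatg

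Per kilobase of exon the Trbv order ran from Trbv3 (3.44 ± 0.620 in KLHL3-KI and 5.38 ± 2.13 in WT, SD, n = 2 each) through Trbv16 and Trbv13-1 down to Trbv24 and Trbv23. Trbv24 is annotated as a pseudogene. The order rests on small gaps: of 20 neighbouring pairs in it, 19 had ranges over the 4 libraries that overlapped, the exception being Trbv17 and Trbv24. In Trav all 56 neighbouring pairs overlapped.
The make-up of the Trbv sum was similar in the libraries. Trbv3, Trbv16, Trbv2 and Trbv13-1 together took 33.1% and 31.0% of Trbv reads in KLHL3-KI against 34.6% and 32.6% in WT. Trbv3 alone took 10.6% and 12.1% in KLHL3-KI against 11.4% and 9.39% in WT. Across the 21 Trbv segments, Pearson's r of the shares was 0.746 between the KLHL3-KI libraries and 0.842 between the WT libraries, and it was 0.722 to 0.832 between libraries of different groups. Across the 57 Trav segments, r of the shares was lower, at 0.141 between the KLHL3-KI libraries and 0.468 between the WT libraries. Between libraries of different groups it was 0.037 to 0.209 in Trav. These are descriptions over segments that share 4 libraries and low counts.
The mean shares of Trbv13-1 and Trbv13-2 differed in opposite directions between the groups, which was not tested. Trbv13-1 took 5.30% and 5.17% of Trbv reads in KLHL3-KI against 8.54% and 7.18% in WT, and Trbv13-2 took 5.30% and 10.3% against 5.28% and 3.31%. The exact binomial 95% interval of Trbv13-2 in KLHL3-KI replicate 2 ran from 5.46% to 17.4% and the one in replicate 1 from 2.31% to 10.2%. In WT replicates 1 and 2 the intervals ran from 2.84% to 8.87% and from 1.23% to 7.075%. These intervals all overlapped, as did those of Trbv13-1, and they cover counting error only.

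**Figure D3:**
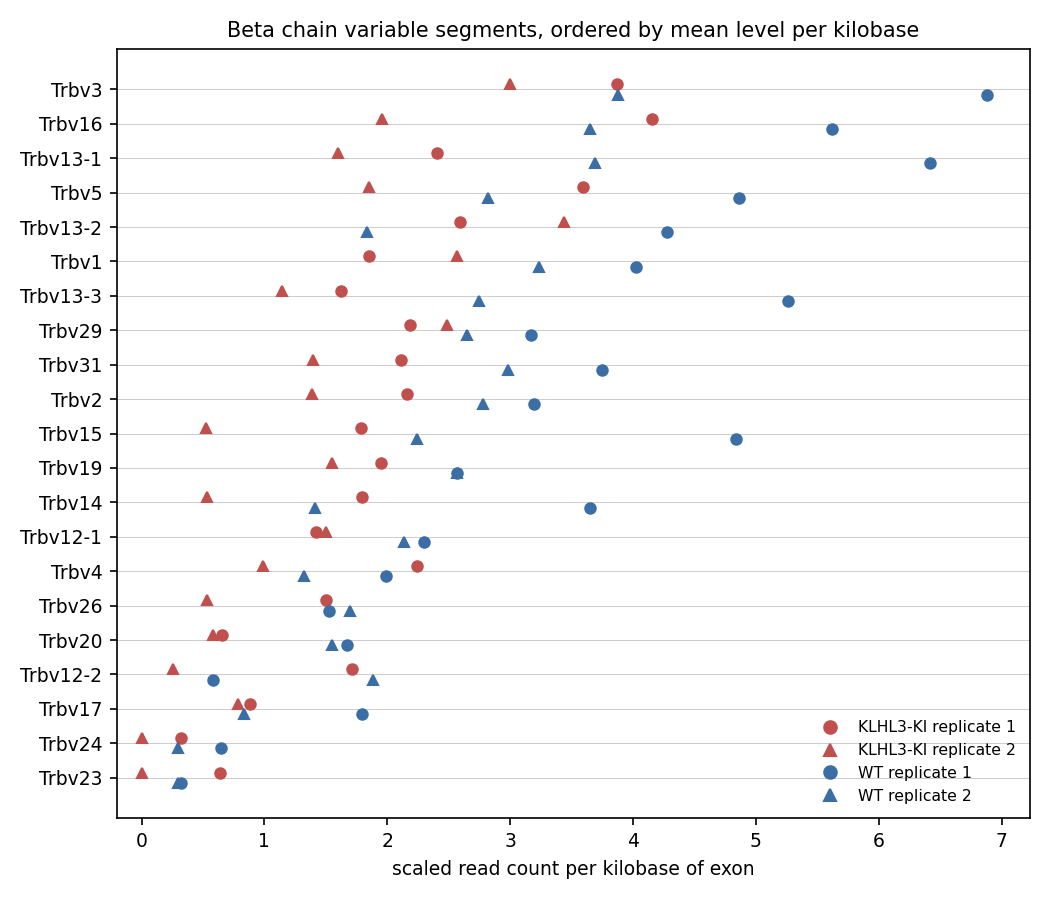
Scaled read count per kilobase of exon (horizontal axis) of the 21 Trbv segments in each library, ordered by their mean over the 4 libraries, with KLHL3-KI above WT in each row. Trbv13-1 has all KLHL3-KI points left of its WT points, whereas those of Trbv13-2 lie between its WT points.

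Alpha segments were lower still, and many cannot be told from their copies. The alpha locus of this strain holds repeated blocks whose segments carry d or n in their names. Of the 57 Trav segments, 39 had another listed Trav segment at 95% or more coding identity (median identity to the nearest 97.2%), whereas none of the 20 Trbv segments with a coding sequence did (median 64.7%). In 8 pairs the annotated transcripts were the same, and in all 8 both copies had the same reads in every library, for example 2 and 2 in KLHL3-KI and 4 and 7 in WT for each of Trav14d-2 and Trav14n-2. In the other 41 pairs at 95% or more, none had the same reads in every library. The sequences show both cases: Trav14d-2 stands also for Trav14n-2, which is the same, and Trav3d-3 and Trav3-3 differ at 4 positions, given in capitals. The last 300 bases are printed, which hold all 4.
Trav14d-2: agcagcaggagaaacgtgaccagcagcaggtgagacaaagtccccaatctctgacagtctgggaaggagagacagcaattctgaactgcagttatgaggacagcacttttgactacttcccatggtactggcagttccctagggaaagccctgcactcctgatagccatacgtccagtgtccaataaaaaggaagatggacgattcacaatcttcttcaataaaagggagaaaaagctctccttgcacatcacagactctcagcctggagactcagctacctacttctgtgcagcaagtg
Trav3d-3: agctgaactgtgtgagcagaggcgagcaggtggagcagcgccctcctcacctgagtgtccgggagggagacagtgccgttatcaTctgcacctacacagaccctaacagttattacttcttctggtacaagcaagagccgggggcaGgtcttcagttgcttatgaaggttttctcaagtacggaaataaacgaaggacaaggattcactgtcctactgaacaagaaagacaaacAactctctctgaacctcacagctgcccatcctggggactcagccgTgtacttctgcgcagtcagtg
Trav3-3: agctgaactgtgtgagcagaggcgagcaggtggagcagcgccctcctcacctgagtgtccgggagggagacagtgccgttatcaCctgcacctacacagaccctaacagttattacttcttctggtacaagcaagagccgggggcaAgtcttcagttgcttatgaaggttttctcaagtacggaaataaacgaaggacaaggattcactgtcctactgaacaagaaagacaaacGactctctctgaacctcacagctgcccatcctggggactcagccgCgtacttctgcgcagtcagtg
Trav3d-3 had 2 and 2 reads in KLHL3-KI against 5 and 2 in WT, and Trav3-3 had 1 and 2 against 7 and 3. Trav9d-4 and Trav9n-4 had opposite patterns, but at 91.2% coding identity they are not a pair at 95% or more. Trav9n-4 had 0 and 0 reads in KLHL3-KI against 5 and 11 in WT, while Trav9d-4 had 4 and 1 in KLHL3-KI against 0 and 0 in WT. Together they had 4 and 1 reads in KLHL3-KI against 5 and 11 in WT. Single Trav values of segments with a copy at 95% or more coding identity are uncertain, and sums over families are given beside them.

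**Figure D4:**
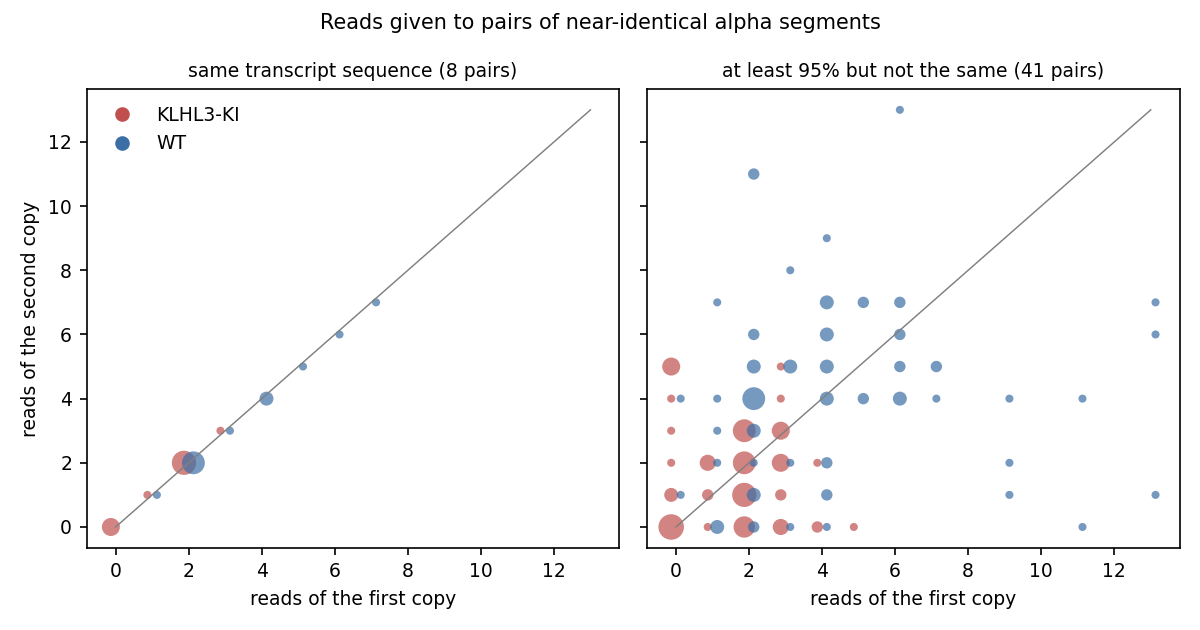
Reads of the first copy (horizontal axis) against reads of the second copy (vertical axis) for pairs of Trav segments at 95% or more coding identity, 1 point per pair and library with larger points for several at the same place, KLHL3-KI drawn slightly left of WT. The 8 pairs with the same transcripts lie on the diagonal, and the 41 other pairs scatter around it.

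Summed by family name, 9 of the 10 Trav families with at least 2 listed segments had a lower mean in KLHL3-KI. In 7 of the 10 both KLHL3-KI values were below both WT values. The share over all single genes of the table was 29.7%, and no share was computed for sums of several genes. The families are parts of the Trav sum given above, so these counts are not separate from it. The Trav14 family, the highest, was at 2.31 and 1.56 in KLHL3-KI (21 and 16 reads) against 5.82 and 4.26 in WT (52 and 41 reads). It took 20.6% and 16.3% of Trav reads in KLHL3-KI against 23.6% and 25.8% in WT. Trav7 was at 1.21 and 0.974 in KLHL3-KI against 3.02 and 2.39 in WT, Trav6 at 1.32 and 1.27 against 3.24 and 1.87, and Trav9 at 1.10 and 0.682 against 2.01 and 1.97. These families did not overlap between the groups. The small families Trav3 (5 and 6 reads in KLHL3-KI against 17 and 7 in WT), Trav4 (6 and 4 against 11 and 11) and Trav8 (3 and 2 against 7 and 11) did not overlap either.
Trav12 and Trav13 overlapped. Trav12 was at 1.76 and 1.17 in KLHL3-KI against 2.13 and 1.25 in WT, and Trav13 at 0.991 and 0.779 against 1.90 and 0.830. Trav16 was at 0.551 and 0.195 in KLHL3-KI against 0.559 and 0.104 in WT, where the WT values enclosed the KLHL3-KI values. None of these family values has a test, and the differences between families were not tested.
By block, the 15 d copies summed to 2.53 and 3.21 in KLHL3-KI against 6.38 and 4.15 in WT, the 13 n copies to 2.53 and 1.56 against 5.15 and 4.36, and the 29 segments with neither letter to 6.17 and 4.77 against 13.1 and 7.99. All 3 blocks, which are again parts of the Trav sum, were lower in both KLHL3-KI libraries than in both WT libraries.

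**Figure D5:**
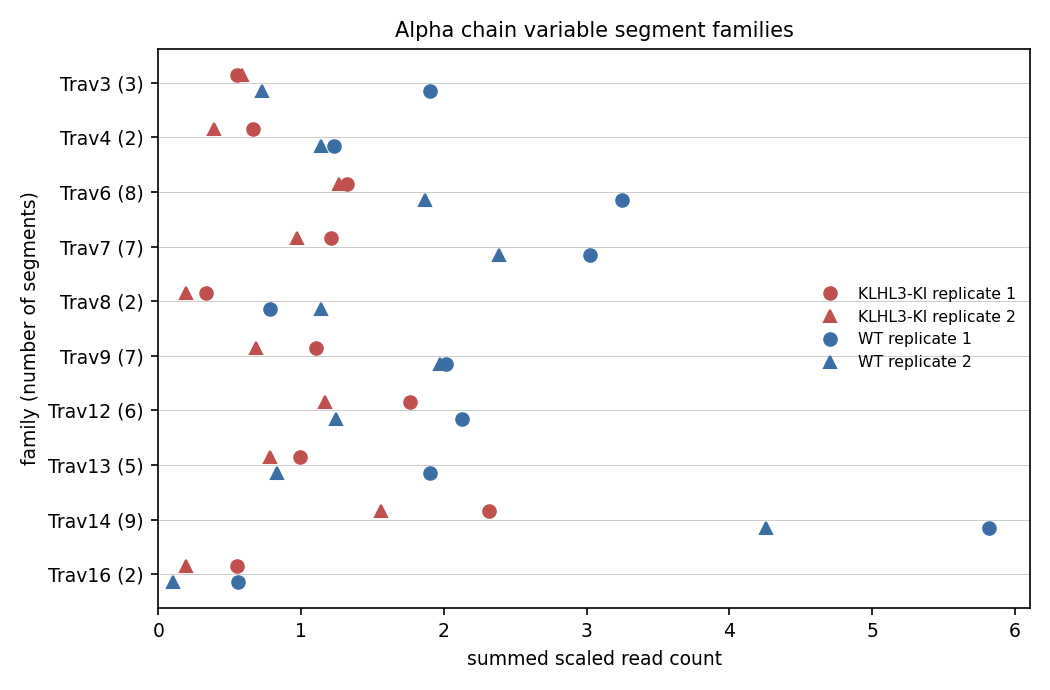
Summed scaled read count (horizontal axis) of the 10 Trav families with at least 2 listed segments in each library, KLHL3-KI above WT in each row and the number of segments in brackets. Trav14 lies at 2.31 and 1.56 in KLHL3-KI and at 5.82 and 4.26 in WT, and the points of Trav12, Trav13 and Trav16 overlap between the groups.

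The single Trav segments with the highest means stayed under the minimum for testing. Trav14d-3-dv8 had 3 and 1 reads in KLHL3-KI against 13 and 9 in WT, or values of 0.330 and 0.0974 against 1.45 and 0.934. Trav4-3 had 4 and 2 reads against 7 and 7, and Trav8n-2 had 3 and 2 against 7 and 7. Trav7-4 had 5 reads in each of the 4 libraries. So 3 of these 4 were lower in both KLHL3-KI libraries, beside 29.7% of all genes of the table, and 1 overlapped between the groups.
With no minimum, limma called 2 of the 82 segments lower and none higher, against 4.51% of 23763 genes called lower. These were Trav9n-4 (log2 fold change -0.87, SE 0.20, adjusted p = 0.0196) and Trav14d-3-dv8 (log2 fold change -0.85, SE 0.21, adjusted p = 0.0271), where 2 of 82 is 2.44%. Both belong to families of near-identical segments. Trav11 and Trav1, which invariant NKT cells and MAIT cells use, are not analysed here. Trav11d, a relative of Trav11 named after its values were seen, had 0 and 10 reads in KLHL3-KI against 5 and 2 in WT, so that its KLHL3-KI values enclosed those of WT.

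The dv in a name marks alpha segments that can also be joined in the delta chain. The 6 of these summed to 1.21 and 0.876 in KLHL3-KI (11 and 9 reads) against 4.36 and 1.87 in WT (39 and 18 reads) and a log2 ratio of -1.58, with WT replicate 1 far above the other 3 libraries. The other 51 Trav segments summed to 10.02 and 8.67 in KLHL3-KI against 20.2 and 14.6 in WT. Of the delta segments, Trdv4 had 1 and 4 reads in KLHL3-KI against 6 and 3 in WT and overlapped. Trdv2-2 had 1 and 0 against 2 and 4, and Trdv5 had 0 and 0 against 2 and 3.
The delta constant gene Trdc was at 3.52 and 2.53 in KLHL3-KI against 5.15 and 5.29 in WT, and its log2 fold change of -0.64 ± 0.21 (SE) did not pass (adjusted p = 0.0565 in limma, 0.0215 to 0.306 over the alternatives). The gamma constant genes Tcrg-C1, Tcrg-C2 and Tcrg-C4 summed to 3.74 and 5.36 in KLHL3-KI against 4.14 and 5.81 in WT. The gamma sums interleaved, and none of the 3 genes passed (limma adjusted p = 0.616, 0.852 and 0.910).

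Fewer segments had a read in KLHL3-KI. At least 1 read was found for 63 and 64 of the 82 segments in KLHL3-KI, against 79 and 73 in WT, with 260 and 226 V reads in KLHL3-KI against 480 and 355 in WT. At a common depth of 226 V reads, 61.3 and 64.0 segments were expected in KLHL3-KI against 68.9 and 66.5 in WT, which still did not overlap but differed by 5.06 segments on average in place of 12.5. The result depended on the minimum: at 3 reads the groups overlapped (33.6 and 26.0 in KLHL3-KI against 32.9 and 33.5 in WT). At 10 reads both KLHL3-KI values were above both WT values, at 3.6 and 4.0 against 2.86 and 2.70. The means there were 3.8 segments in KLHL3-KI and 2.78 in WT. The Trbv segments alone gave 20.7 and 19.0 in KLHL3-KI against 19.8 and 20.2 in WT at 116 reads, and the Trav segments 38.7 and 43.0 against 44.9 and 41.9 at 98 reads, and both overlapped. A read was present in all 4 libraries for 46 of the 82. Trav7d-4, Trav7d-5, Trav7n-5, Trav9n-4 and Trdv5, named after their values were seen, had reads in both WT libraries and in neither KLHL3-KI library, and Trav9d-4 showed the reverse. Of these, Trav7d-5 and Trav7n-5 have the same transcripts, so the 5 are 4 distinguishable segments. The 5 rested on few WT reads, from 2 and 2 for Trav7d-5 to 5 and 11 for Trav9n-4. No share over all genes was computed for either pattern.
Genes of receptor assembly were low or near the limit of detection; as background, these enzymes work mainly in thymus and bone marrow. Rag1, a subunit of the recombinase, was at 0.220 and 0.195 in KLHL3-KI against 0.559 and 1.87 in WT, and Rag2, its partner, at 0.220 and 0.0974 against 0.112 and 0. Dntt, which adds bases at the joints, was at 0.991 and 2.34 against 1.68 and 1.66 and did not pass (limma adjusted p = 0.922). Ptcra, the partner chain of the early beta chain, is not analysed here.

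Other cell types moved with the groups. All 20 T cell markers of a list drawn from general knowledge, which holds Trac and the CD3 genes, fell, with summed levels of 584 to 637 in KLHL3-KI against 976 to 1123 in WT, and none was listed at 0. Without WT replicate 1, 10 of the 20 lost the call in limma, among them Cd8a, Cd8b1, Cd2, Cd28, Zap70 and Lat, and the other 10 kept it in every alternative that tested them. All 9 erythroid markers rose (sums of 36008 to 36029 against 16758 to 19356), as did all 10 neutrophil markers (1439 to 1946 against 69.0 to 153). Of 10 B cell markers 8 fell, with a median log2 fold change of -0.71, and 5 of the 8 lost the call in some alternative. The summed level of the 10, 13047 to 15192 against 13334 to 14821, overlapped. That sum was mostly Ighm, which did not pass (12431 and 10937 in KLHL3-KI against 9633 and 11007 in WT). Each of the other B cell markers was lower in both KLHL3-KI libraries than in both WT libraries. Of 9 NK cell markers 3 fell (106 to 117 against 138 to 141), and all 3 lost the call without WT replicate 1 and without WT replicate 2. Of 8 monocyte and macrophage markers 3 rose (3739 to 3850 against 3022 to 3404), of which 1 lost the call without WT replicate 2.
The 14 measured gamma-delta and innate-like T cell genes summed to 288 to 327 in KLHL3-KI against 366 to 368 in WT, with Il23r listed at 0 in KLHL3-KI replicate 1. Of the 12 of them that were tested 1 fell, which was the kinase gene Blk, also known from B cells (log2 fold change -0.56, SE 0.13, adjusted p = 0.0114 in limma). Leaving out WT replicate 1 (adjusted p = 0.0669), WT replicate 2 (0.127) or the variance trend (0.0771) ended that limma call. The interleukin-18 receptor gene Il18r1 (-0.38, SE 0.14) and the gamma-delta factor Sox13 (-0.38, SE 0.18) did not pass (limma adjusted p = 0.0745 and 0.161). The part of the other cell types in the V segment sums was not tested.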

How the data were processed

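Spleen RNA of 2 KLHL3-KI and 2 WT libraries was used, with groups and replicate numbers from the sample titles and columns matched by library name. Per the submitters' processing notes, Trimmomatic 0.38, Bowtie2, RSEM 1.3.0 and edgeR were used with GRCm39; their roles are unstated, and the annotation and any filter are likewise not given in the sources used. The deposited table holds a normalized signal, called normalized counts by the authors. Every value was a whole multiple of its library's smallest value (100% within 0.001), so whole numbers, called reads here, were recovered. Their totals were 9586677 and 10933023 in KLHL3-KI and 8535483 and 8975415 in WT. Whether they were rounded from fractional assignments is not stated, and the counting intervals and the thinning treated them as whole reads. Divided by a TMM effective library size computed here, these reads gave the deposited values as CPM (ratio 1.0000). The reads of near-identical copies cannot be assigned with certainty.

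Names came from GENCODE M21 (GRCm38), so no coordinates are given; 23605 of 23763 identifiers (99.3%) had one. Lengths are the union of annotated exons. Genes with a mean of at least 1 (16970) were tested on log2(value + 1) with limma 3.58.1 in R 4.3.3 (two-sided, with a variance trend; calls were made at p under 0.05 after Benjamini-Hochberg adjustment over all genes). The recovered reads were also tested with edgeR 4.0.16 and DESeq2 1.42.0. On simulated counts of 16962 genes limma recovered 85 of 98 genes changed 2-fold and 97 of 98 changed 4-fold. The changed genes were drawn from all with a mean of at least 1, with the same added spread between replicates for every gene. These rates therefore do not apply to segments as low as the members. Replicates differed by more than counting noise (chi-square per degree of freedom 7.76 between KLHL3-KI and 4.38 between WT libraries). Coding identity was taken from global alignments, counting gaps as differences. Thinning used the exact hypergeometric expectation. Members, lists, tests and alternatives were chosen with earlier results of these data known. The rule for named genes gave the 4 members of highest mean per locus, members that passed, constant, CD3 and recombination genes, the 4 innate-like T cell genes of lowest p, Trav11 and Trav1; others are said to be named after their values were seen.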

Additional observations from a re-analysis of the deposited data

How the results depend on the processing

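Depth limits these results: 486 V reads in KLHL3-KI and 835 in WT were spread over 82 segments. The count of members called was 0 in each direction under every alternative that gave any member an adjusted p (DESeq2 did so for 1 of 9), except that 2 were called lower with no low-value filter; with a mean of at least 5 no member was left to test. With the replicate block 0 members were called, while over all genes 4130 passed against 3866 (1283 lower, 2583 higher) without it. Over all genes the count was 2462 without a variance trend, 2195 without WT replicate 1, 1653 without WT replicate 2, 5038 with equal total reads (3126 lower, 1912 higher) and 4410 with quantile normalization (2369 lower, 2041 higher). The replicate numbers do not pair samples by the labels, and the correlation of same-numbered deviations over 16970 genes was -0.03. Whichever library was left out, the Trav log2 ratio ran from -1.24 to -0.67, the Trbv ratio from -1.04 to -0.43, the Trgv ratio from 0.19 to 0.69 and the Trdv ratio from -2.29 to -1.47. Divided by the summed Cd3e, Cd3d and Cd3g, the ratios were -0.19 for Trav, 0.06 for Trbv, which turned its sign, 1.23 for Trgv and -1.03 for Trdv. That follows from the lower CD3 sum in KLHL3-KI. Without its most abundant member Trdv was at -3.41. With equal total reads, where the median of all genes shifted to -0.16, the ratios were -1.15, -0.89, 0.29 and -1.99. Other scalings and groupings tried moved them by less than the replicate SD. The difference in segments detected after thinning, KLHL3-KI minus WT, was -5.06 at 1 read and turned to 1.02 at a minimum of 10 reads, with means of 3.8 segments in KLHL3-KI and 2.78 in WT; the cause was not tested. The share of the 4 most abundant Trbv segments differed by -1.50 percentage points, and by -4.58 among segments with a mean of at least 1, where fewer segments share the total. Trdc passed with a pseudocount of 5 (limma adjusted p = 0.0479), equal total reads (0.0251), quantile normalization (0.0494) and without KLHL3-KI replicate 1 (0.0215). Il18r1 passed with equal total reads (0.0163) and quantile normalization (0.0292).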
